A study of Mus musculus with 6 samples.

Results

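The 10 genes described here belong to the Bcl-2 family, the proteins that decide whether the outer membrane of the mitochondrion stays closed or is opened during apoptosis. They were taken by name, not by their values, and make up 10 of 23259 gene names. Survival members hold the membrane closed by binding the other members, and here these are Bcl2l10, Bcl2l1 (encoding Bcl-xL), Mcl1 and Bcl2. The effectors Bax, Bak1 and Bok form the pores through which cytochrome c leaves, and the BH3-only members Bid, Bcl2l11 (Bim) and Bad pass on death signals by binding the survival members or the effectors. BCL2L10, also called Diva or Boo in the mouse, is known for its high expression in the oocyte. The mouse protein has been described both as blocking and as promoting cell death, and it is placed with the survival members here by its family, not by any result of these data. Early embryos live on RNA stored in the oocyte until their own genome is switched on, which in the mouse begins weakly in the zygote and becomes strong at the 2-cell stage.

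The samples were wild-type (WT) zygotes, embryos of the WT at the 2-cell stage and Pabpn1l-null zygotes, with 2 samples per group and 50 embryos pooled in each. PABPN1L is a poly(A)-binding protein needed for the decay of stored maternal mRNA. The labels do not say how far the deletion reaches, whether the mother, the embryo or both carry it, or which strain was used. All embryos were cultured with 200 μM 4-thiouridine for 2 h, for the zygotes at 26 h after the hormone injection (hCG) that triggers ovulation. For the 2-cell stage the sources used here state no time. The labelled nucleotide enters RNA made during the culture and is read as a T-to-C mismatch after alkylation. No unlabelled sample was analysed here, so the part of T-to-C reads that comes from sequencing error or sequence differences is unknown.

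The deposited table gives 1 column of total reads and 1 of T-to-C reads per group. No spread between the 2 samples of a group can be seen, and each comparison below is between libraries, not conditions. Counts are given in the order WT zygotes, null zygotes, 2-cell embryos where no column is named. Pabpn1l itself had 47, 4 and 14 reads. On named genes the columns held 3001472, 1270347 and 4020444 reads, of which 3.03%, 3.86% and 4.54% were T-to-C reads. Low counts of the null column come in clumps (184 genes had exactly 1 read there, against 977 and 545 in the WT zygote and 2-cell columns). Therefore each 7 reads were taken as 1 molecule, in the WT columns too, although those show no such deficit. Intervals are 95% intervals by the exact Clopper-Pearson method, taken on molecules. They hold counting error alone, because PCR copies without molecular identifiers are not independent. A gene is called higher or lower where the exact conditional binomial test passed after Benjamini-Hochberg adjustment over all genes tested and the ratio was at least 2-fold. A count of 0 allows up to 3 molecules, or 21 reads. All 8 oocyte markers examined (among them Gdf9, Zp3 and Zar1) had reads in each column, and 6 markers of the 2-cell stage summed to 205, 21 and 10621 reads. Among the latter, Dux went the other way, with 150, 13 and 84 reads and a 2-cell to WT zygote ratio of 0.432 (0.194 to 0.917), not called. Markers of other cells were low. The sum over 8 genes of cumulus and granulosa cells was 107, 27 and 21 reads in the same order. Most of the zygote reads were on Cyp19a1, with 80, 23 and 0 reads, which was called lower at the 2-cell stage, while Ptx3, Tnfaip6, Inhba and Amh were at 0 throughout. Over 7 sperm genes the sum was 8, 0 and 4, and over 4 blood genes 42, 1 and 37. In whole embryos, fewer cells with a transcript and less RNA per cell cannot be told apart.

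Mcl1 and Bid were the members called higher at the 2-cell stage. For this reason the 250 bases before a RefSeq start of each gene are shown on GRCm38.p6, 5′ to 3′ in the direction of the gene. The Mcl1 window is chr3:95658471-95658720 on the plus strand and the Bid window is chr6:120916825-120917074 on the minus strand. Both lie partly or wholly within the RefSeq span of their gene. Capitals mark the GC box GGGCGG on either strand.
Mcl1: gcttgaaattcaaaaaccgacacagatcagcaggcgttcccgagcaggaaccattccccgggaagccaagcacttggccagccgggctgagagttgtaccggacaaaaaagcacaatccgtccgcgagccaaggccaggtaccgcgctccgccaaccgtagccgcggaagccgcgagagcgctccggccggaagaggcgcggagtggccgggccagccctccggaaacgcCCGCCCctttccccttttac
Bid: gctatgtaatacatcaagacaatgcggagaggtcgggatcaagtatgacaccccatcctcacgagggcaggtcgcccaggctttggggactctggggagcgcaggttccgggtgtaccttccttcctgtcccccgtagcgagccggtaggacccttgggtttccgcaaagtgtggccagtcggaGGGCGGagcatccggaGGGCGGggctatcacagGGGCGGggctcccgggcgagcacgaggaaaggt

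The GC box occurred once in the Mcl1 window and 3 times in the Bid window, and 32.7% of 32851 RefSeq windows of the same length hold it. The ETS core CCGGAA was found at 2 places before Mcl1 and at 1 before Bid, with a match in 12% of windows. Neither window holds TATAAA (12.4% of windows), CCAAT (33.8%), the E-box CACGTG (6.02%) or the half-site TGACG (17.8%). Both strands were searched, and the motifs do not overlap each other by their letters in these windows. A promoter window was found for 9 of the 10 genes, the exception being Bcl2l10.

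Between the WT zygote and the 2-cell stage the reads of 3 members differed by call. Bcl2l10 was lower in total reads, with a 2-cell to WT zygote ratio of 0.115, while Mcl1 (4.48) and Bid (13.3) were higher. Bcl2l1 and Bcl2l11 differed by less than 2-fold. Of the 10 members 6 reached 20 reads over the 3 columns and could be tested, and of these 2 were called higher and 1 lower. Bid, with 12 and 3 reads in the zygote columns, reached 20 only through the 2-cell column, where it is high, so its call is a description and lends no support to the count. In all, 32.4% of 11262 genes tested were called in this comparison, 16.4% higher and 15.9% lower (1849 and 1795 genes, or 2284 and 1433 with RLE factors), so a share of 3 in 6 members is not far from that of genes at large. The other 4 members, Bax, Bak1, Bok and Bad, had 0 to 10 reads in any column.

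Bcl2l10 (chromosome 9, 75347758 to 75351640) had 5853 reads in the WT zygote column, 3269 in the null column and 875 at the 2-cell stage. Scaled for column size with TMM factors these are 1957, 2470 and 226 CPM, the unit of all scaled levels below. Both zygote columns were thus high and the 2-cell column low. The 2-cell to WT zygote ratio was 0.115 (0.0949 to 0.139), and 6.79% of genes tested had a lower one. Reads without a T-to-C mismatch, 5275 and 843, gave nearly the same ratio, 0.123 (0.101 to 0.150), so the lower level holds for these reads taken alone. Whether they come from stored or new RNA was not tested.

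Bcl2l1 (chromosome 2, 152758732 to 152833803), the survival gene with the second most reads in zygotes, differed less between columns. It had 1633, 909 and 1827 reads, or 546, 687 and 472 CPM. Its 2-cell ratio of 0.864 (0.721 to 1.04) was not called, and its whole interval lies within 2-fold of 1. Its direction depends on scaling, since the ratio is 1.04 with RLE factors, under which the median over all genes moves from 0.04 to 0.28 on the log2 scale. Free of any scaling is the ratio of Bcl2l10 reads to Bcl2l1 reads within a column. That ratio was 3.58 (3.10 to 4.16) for WT zygotes, 3.60 (2.96 to 4.40) for null zygotes and 0.479 (0.384 to 0.595) for the 2-cell stage. The balance of these 2 survival genes therefore differed between the stages beyond counting error, and in the null zygote column it lay inside the interval of the WT zygotes.

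Mcl1 (chromosome 3, 95656944 to 95663179), a survival protein with a short life, had 45 reads in the WT zygote column, 56 in the null column and 261 at the 2-cell stage. These are 15.1, 42.3 and 67.4 CPM. The WT zygote was lowest and the 2-cell embryo highest, with a ratio of 4.48 (1.92 to 12.5) between them. The call did not hold under the exact test of edgeR, run with a biological variation set to 0.4. Relative to Bcl2l1 within a column, Mcl1 reads amounted to 0.0276 (0.0104 to 0.0594), 0.0616 (0.0260 to 0.125) and 0.143 (0.0985 to 0.202).

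Bcl2 (chromosome 1, 106538176 to 106714290), the founding survival gene, was hardly seen. It had 17 reads in the WT zygote column, 7 in the null column and 0 at the 2-cell stage. All 3 values lie within the 21 reads that a count of 0 allows, so no fold is given. The difference was not called with 7 reads per molecule. Bcl2 was called lower at the 2-cell stage when each read of the WT columns counted as 1 molecule and under the exact test of edgeR. These settings called 59.2% and 26.3% of all genes tested. A separate row of the same name held 2, 0 and 0 reads.

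**Figure D1:**
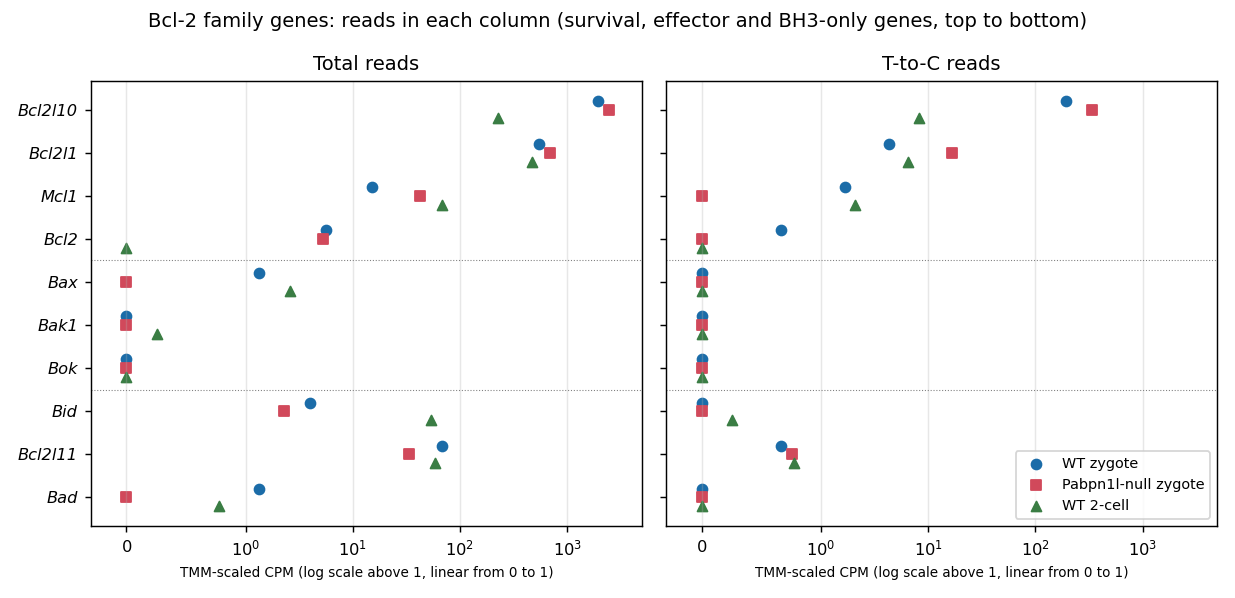
Total reads (left) and T-to-C reads (right) of the 10 genes, in scaled CPM on an axis that is logarithmic above 1 and linear below; each point is 1 column, with WT zygotes as circles, Pabpn1l-null zygotes as squares and WT 2-cell embryos as triangles. Bcl2l10 stands at 1957 and 2470 in the zygote columns and at 226 in 2-cell embryos, while Bax, Bak1, Bok and Bad lie below 3 in every column.

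The pore-forming effectors were at or near 0 in all columns. Bax (chromosome 7, 45461695 to 45466903) had 4, 0 and 10 reads. Bak1 (chromosome 17, 27019812 to 27028627) had 0, 0 and 1, and Bok (chromosome 1, 93685575 to 93695770) had none in any column. At this depth a count of 0 allows up to 7.02, 15.9 and 5.42 CPM. Effector transcripts below such levels could have been missed, and no difference between columns can be read for these 3 genes. The number of reads also depends on transcript length, which is not in the table, so the counts do not rank one gene's molecules against another's.

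Among BH3-only genes Bid stood out. Bid (chromosome 6, 120893119 to 120917062), which links caspase-8 to the mitochondrion once it is cut, had 12 reads in the WT zygote column, 3 in the null column and 207 at the 2-cell stage, or 4.01, 2.27 and 53.4 CPM. Both zygote columns were low. The 2-cell to WT zygote ratio was 13.3, with a wide interval (3.10 to 149) because 12 zygote reads make fewer than 2 molecules of 7 reads.

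Bcl2l11 (chromosome 2, 128126038 to 128162547) encodes Bim, which can bind every survival member, and it was the BH3-only gene with the most zygote reads. Its counts were 204, 44 and 226 reads, or 68.2, 33.2 and 58.4 CPM. The ratio of the 2 WT columns was 0.855 (0.502 to 1.46), which was not called and became 1.03 with RLE factors. Bad (chromosome 19, 6941861 to 6951905), a BH3-only protein silenced by growth factor signalling, had 4, 0 and 3 reads and was not tested.

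Summed by role, the 4 survival genes had 7548, 4241 and 2963 reads. The 3 BH3-only genes summed to 220, 47 and 436 reads and the 3 effectors to 4, 0 and 11. The survival sum was lower at the 2-cell stage, with a ratio of 0.303 (0.270 to 0.339), and this rests on Bcl2l10, since without it the ratio was 0.951 (0.800 to 1.13). The BH3-only sum gave 1.53 (0.981 to 2.43), an interval that includes 1. Within a column, survival reads per BH3-only read numbered 34.3 (24.1 to 50.6) for WT zygotes, 90.2 (42.9 to 231) for null zygotes and 6.80 (5.20 to 9.02) for the 2-cell stage. The 2-cell value thus lay below both zygote values beyond counting error, but the difference between the WT columns rests mainly on 2 genes. Bcl2l10 held 77.5% of survival reads in WT zygotes and 29.5% at the 2-cell stage. Bid gave 12 of the 220 BH3-only reads in WT zygotes and 207 of the 436 at the 2-cell stage. The ratio without these genes was not computed. Of all reads on the 10 genes, Bcl2l10 held 75.3%, 76.2% and 25.7%, and Bcl2l1 held 21.0%, 21.2% and 53.6%.

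**Figure D2:**
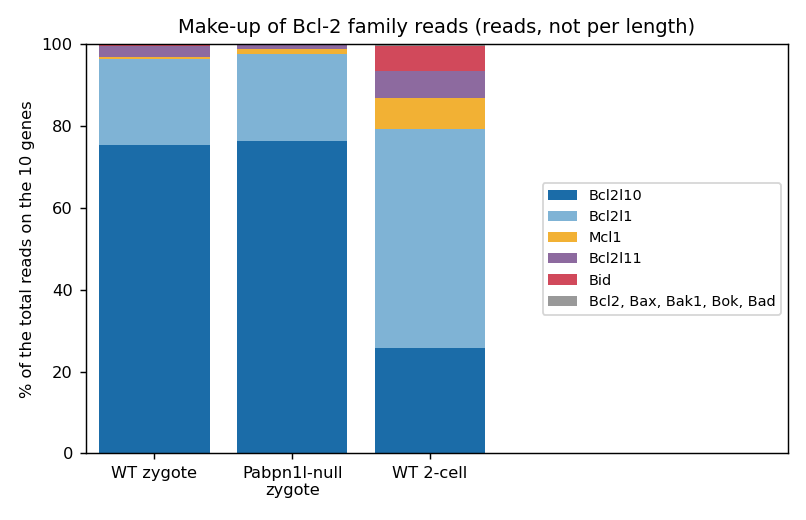
Percent of the total reads on the 10 genes that fell on each gene, 1 stacked bar per column, in reads that are not adjusted for transcript length. Bcl2l10 takes 75.3% and 76.2% of the bar in the 2 zygote columns and 25.7% in 2-cell embryos, where Bcl2l1 takes 53.6% and BH3-only genes 12.8%.

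Between null and WT zygotes no member was called, and the 2 members with the most reads differed by less than 2-fold. The null to WT zygote ratio of total reads was 1.26 for Bcl2l10 (1.12 to 1.41) and 1.26 for Bcl2l1 (1.01 to 1.57). For Mcl1 it was 2.81 (0.872 to 9.49) and for Bcl2l11 0.487 (0.170 to 1.18), both with intervals that include 1. Bid, at 12 and 3 reads, and Bcl2, at 17 and 7, were too low to compare. For Bcl2l10 the difference passed the test but not the 2-fold rule. None of the 6 tested members was called, where 1.36% of 11262 genes were called and 1060 had an unadjusted p under 0.05. With each read taken as 1 molecule, Mcl1 was called higher and Bcl2l11 lower, beside 23.9% of all genes tested. Neither was called when that was done for the WT columns only.

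The 2 members with narrow intervals, Bcl2l10 and Bcl2l1, lay above 1 by the same factor. Their log2 ratios, 0.34 and 0.33, are set beside a median of -0.15 over all genes tested and of 1.17 over the 8 oocyte markers, of which Gdf9 and Zar1 were called higher in the null column. The markers did not go one way, since the ratio was 0.673 (0.483 to 0.924) for Npm2 and 0.858 (0.613 to 1.19) for Nlrp5, neither of them called. Whether the level of these oocyte transcripts and that of the 2 survival genes share a source was not tested. The library labelled null and the WT 2-cell library were both compared with the same WT zygote library, so the values of the 2 comparisons are not independent.

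**Figure D3:**
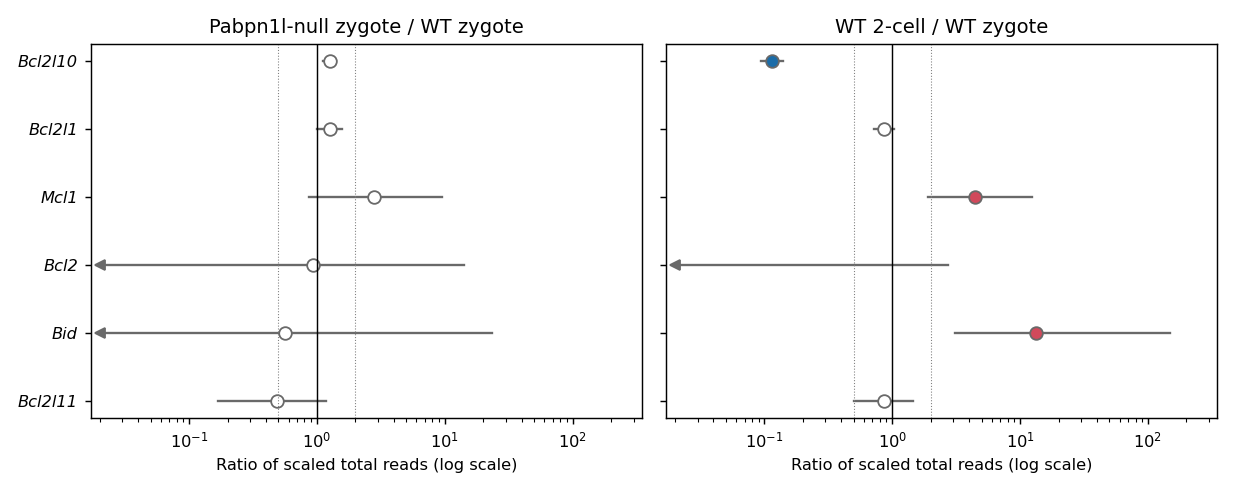
Ratio of scaled total reads to WT zygotes for the 6 tested members in Pabpn1l-null zygotes (left) and WT 2-cell embryos (right), on log axes; lines are 95% intervals that cover counting error, arrowheads mark intervals that run past the axis, dotted lines mark 2-fold, and filled points are called genes. On the right Bcl2l10 (0.115) lies to the left of 1 and Mcl1 (4.48) and Bid (13.3) to the right, and on the left no point is filled.

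In zygotes, T-to-C reads of the family were nearly all on Bcl2l10. In the WT zygote column it had 578 of the 600 T-to-C reads on the 10 genes, in the null column 444 of 467, and at the 2-cell stage 32 of 69. Bcl2l1 had 13, 22 and 25, Mcl1 5, 0 and 8, Bcl2l11 2, 1 and 3, Bcl2 2, 0 and 0, and Bid 0, 0 and 1. The 4 members Bax, Bak1, Bok and Bad had none. Only Bcl2l10, Bcl2l1 and Mcl1 reached 10 T-to-C reads over the columns and were tested.

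Of these 3, Bcl2l10 was the one called in labelled reads of the 2-cell stage, where it was lower, with a ratio of 0.0427 (0.0127 to 0.108). Over 4376 genes 5.74% were called in this comparison, 4.18% higher and 1.55% lower (183 and 68 genes, or 96 and 101 when scaled by the T-to-C total). Bcl2l1 had a ratio of 1.48 (0.190 to 18.9) and Mcl1 of 1.24 (0.0188 to 308), so neither direction can be read. Both turned below 1 when scaled by the total of T-to-C reads. For null zygotes set against the WT, the ratio of T-to-C reads was 1.74 for Bcl2l10 (1.23 to 2.44) and 3.82 for Bcl2l1 (0.441 to 50.4). Neither was called, nor was Mcl1, where 0.0457% of genes were called and 41 had an unadjusted p under 0.05.

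The T-to-C share, which is the percent of a gene's own reads that carry the mismatch, set Bcl2l10 apart from most genes in zygotes. It was 9.88% (7.94 to 12.1) for WT zygotes, 13.6% (10.6 to 17.0) for null zygotes and 3.66% (1.12 to 8.62) for the 2-cell stage. Among 1331 genes with at least 500 reads in WT zygotes the median share was 2.18%, and 29 of them had a higher share than Bcl2l10. In null zygotes 10 of 484 such genes did, with a median of 3.02%. In 2-cell embryos 425 of 1660 did, with a median of 2.10%. Shares of different genes also depend on how many T bases their reads cover, which the table does not give.

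Bcl2l1 had a lower share than Bcl2l10 in each column, though at the 2-cell stage the intervals overlap with 7 reads per molecule. With each read taken as 1 molecule they do not, at 0.887% to 2.01% for Bcl2l1 and 2.52% to 5.12% for Bcl2l10. Its share was 0.796% (0.0856 to 2.97), 2.42% (0.528 to 6.76) and 1.37% (0.338 to 3.64). In WT zygotes 1283 of the 1331 genes had a higher share. In the other columns 313 of 484 and 1268 of 1660 did. Its WT zygote share rests on 13 reads. With 7 reads per molecule its interval holds the median of 2.18%, so the low rank in that column is then within counting error. With each read taken as 1 molecule the interval was 0.425% to 1.36%, which lies below that median.

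In the test of shares, 4 members had at least 20 reads in both columns of a comparison, and none was called. At the 2-cell stage 1.91% of 6909 genes were called, and in null zygotes 0% of 5999, with 49 at an unadjusted p under 0.05. The 2-cell to WT zygote ratio of shares was 0.370 for Bcl2l10. It was called lower when each read of the WT columns counted as 1 molecule, a setting under which 14.6% of the 6909 genes were called. Those columns do not show the deficit of genes at 1 read that the null column has. The null to WT ratio of shares was 1.38 for Bcl2l10 and 3.04 for Bcl2l1. The latter was called when each read of every column counted as 1 molecule, beside 12.2% of the 5999 genes. In 2-cell embryos Mcl1 had 8 T-to-C reads of 261, a share of 3.07% (0.115 to 14.7), and Bid had 1 of 207, or 0.483% with an upper end of 12.6%. With 7 reads per molecule both intervals hold the share of the whole column, 4.54%. With each read taken as 1 molecule the interval of Mcl1 was 1.33% to 5.95%, which holds it too. That of Bid was 0.0122% to 2.66%, which lies below the share of the whole column. Both of these intervals hold the median of 2.10% over genes with at least 500 reads in 2-cell embryos.

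The authors' deposited table also marks each gene as Positive or Negative in each column, by a rule that no source used here states. There, in the authors' deposited table, Bcl2l10 was Positive in all 3 columns, Bcl2l1 in the null column alone, and the other 8 members were Negative throughout. Of all gene names that the authors' deposited table holds, 2.86%, 4.26% and 5.83% were Positive.

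**Figure D4:**
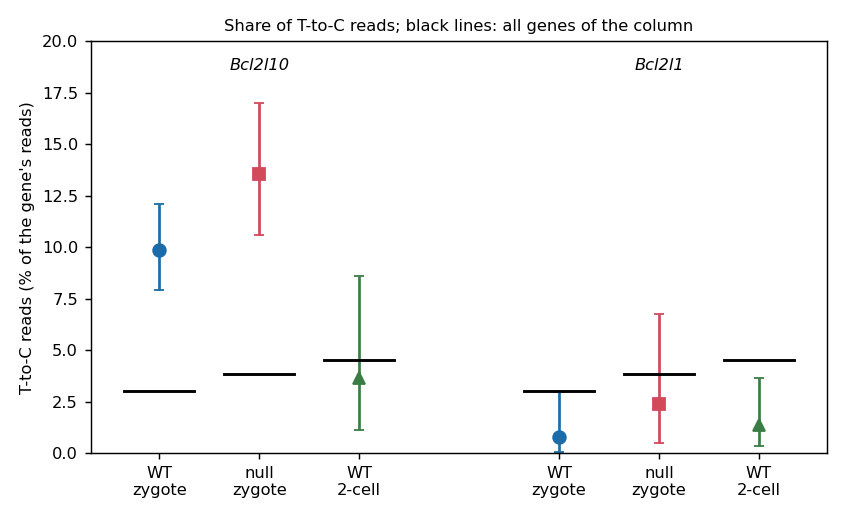
T-to-C reads as a percent of the reads of Bcl2l10 and of Bcl2l1 in each column, with 95% intervals on molecules; black lines give the share over all genes of the column. The zygote shares of Bcl2l10 (9.88% and 13.6%) lie above the black lines at 3.03% and 3.86%. Its 2-cell share (3.66%) lies near the line at 4.54%. Bcl2l1 lies below the line in each column, but in null zygotes its interval (0.528 to 6.76) holds the line. Medians over genes with at least 500 reads were lower than the lines, at 2.18%, 3.02% and 2.10%.

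The genes whose pattern over the columns was most like that of Bcl2l10 were Nsf, Bpgm, Fam46c, Acbd3 and 1600021P15Rik. Likeness was the distance over 6 values (log2 total and log2 T-to-C reads, each centred over the 3 columns), and among 3795 genes compared the median distance was 5.04. Nsf, a fusion factor of membrane traffic, was nearest at 0.787, with 1440, 809 and 153 total reads. Fam46c, a poly(A) polymerase gene, lay at 0.864 with 8604, 4799 and 1364. Bpgm, an enzyme of red cell glycolysis, lay at 0.863 with 5241, 3206 and 856. All 5 were high in both zygote columns and low in the 2-cell column, and their T-to-C shares in WT zygotes, from 1.74% for Acbd3 to 6.04% for 1600021P15Rik, were below that of Bcl2l10.

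Most other relatives of the family had few reads in zygotes, the main exceptions being Bcl2l13 and Bnip3l. Of 17 relatives listed, 10 could be tested, and 3 were called higher and 0 lower in total reads at the 2-cell stage, beside 16.4% and 15.9% of all genes. Pmaip1, Bmf, Bbc3, Bcl2l2 and Bcl2l14 reached 20 reads only through the 2-cell column, so this count is no sign of a direction of the list, and no median is given. Those called were the BH3-only genes Pmaip1 (Noxa) and Bmf and the autophagy gene Becn1. Pmaip1 had 1, 0 and 133 reads, a ratio of 103 whose interval starts at 3.32. Bmf had 3, 3 and 72 reads, a ratio of 18.5 whose interval starts at 1.43. Becn1 had 110, 42 and 389 reads, a ratio of 2.73 (1.54 to 5.13). Of the relatives with the most reads, Bcl2l13 (974, 611 and 1470), Bnip3l (651, 214 and 901) and Bnip3 (121, 83 and 171) had 2-cell ratios of 1.17 (0.936 to 1.45), 1.07 (0.812 to 1.41) and 1.09 (0.566 to 2.15) and were not called. Bbc3 (Puma) had 1, 0 and 44 reads and was not called either. The 4 Bcl2a1 genes and Bcl2l12 had none.

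Downstream of the mitochondrion, 4 genes of the apoptosome and caspases are given by their values, with no count over their list. Casp2, a caspase that acts in oocyte death, had 181, 119 and 115 reads (0.491, 0.247 to 0.946), Cycs, which encodes cytochrome c, had 75, 14 and 147 (1.51, 0.693 to 3.51), and Apaf1, the scaffold of the apoptosome, had 19, 9 and 74 (3.01, 0.752 to 18.8). Casp9, the caspase that the apoptosome activates, had 39, 39 and 15 reads (0.297, 0.0319 to 1.66). None of these 4 was called, beside 32.4% of all genes, and so few genes show no steadiness of the pathway.

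Inhibitors of apoptosis went in both directions, with 1 of 5 called higher and 2 lower, beside 16.4% and 15.9% of all genes. Birc2, with 2, 0 and 24 reads, was tested only through the 2-cell column and was not called, so no median is given for this comparison. Xiap, which blocks caspases directly, had 138, 32 and 445 reads, a 2-cell ratio of 2.49 (1.48 to 4.36). Birc3 had 1013, 289 and 460 (0.351, 0.258 to 0.472), and Birc5 (survivin), which also serves the mitotic spindle, had 925, 420 and 551 (0.460, 0.343 to 0.613). Birc5 was also called lower in T-to-C reads, 176 against 63, a ratio of 0.276 (0.114 to 0.612). Birc6 had 78, 27 and 75 reads and was not called.

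Of the 4 proteins released from mitochondria 3 were tested and 0 called at the 2-cell stage, beside 32.4% of all genes. Their median log2 ratio of -0.19 turned to 0.07 with RLE factors. Diablo had 126, 25 and 143 reads, Endog 66, 51 and 52, Htra2 17, 12 and 20, and Aifm1 none. Among 11 regulators of Bcl-2 proteins 4 were called higher and 2 lower at the 2-cell stage, beside 16.4% and 15.9% of all genes. Fbxw7, with 3, 12 and 26 reads, was tested only through the 2-cell column and was not called, so no median is given for this comparison. Higher were 2 enzymes that set the turnover of MCL1, the ubiquitin ligase gene Huwe1 (52, 30 and 328 reads; 4.87, 2.23 to 12.4) and the deubiquitinase gene Usp9x (1571, 470 and 6117; 3.01, 2.59 to 3.50). The kinase gene Akt1, whose product phosphorylates BAD, had 381, 223 and 1014 reads (2.06, 1.50 to 2.86), and the channel gene Vdac1 had 334, 67 and 1436 (3.32, 2.41 to 4.65). Lower were Tmbim6, which encodes Bax inhibitor 1, with 2544, 1019 and 1297 reads (0.394, 0.328 to 0.471), and Vdac3 with 823, 239 and 305 (0.286, 0.197 to 0.408). In null against WT zygotes none of the genes tested here from these 5 lists was called in total reads, against 1.36% of all genes. Over all genes the median log2 ratio was -0.15. The list medians were -0.50 for inhibitors of apoptosis and 0.55 for proteins released from mitochondria. For regulators the median was -0.04, turning to 0.02 with column totals alone. The -0.50 is the value of Birc2, with 2 reads in WT and 0 in null zygotes. The 0.55 is that of Htra2, with 17 and 12 reads and a ratio interval of 0.0981 to 18.4. Both genes have too few reads for a shift of either list to be read from these medians.

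**Figure D5:**
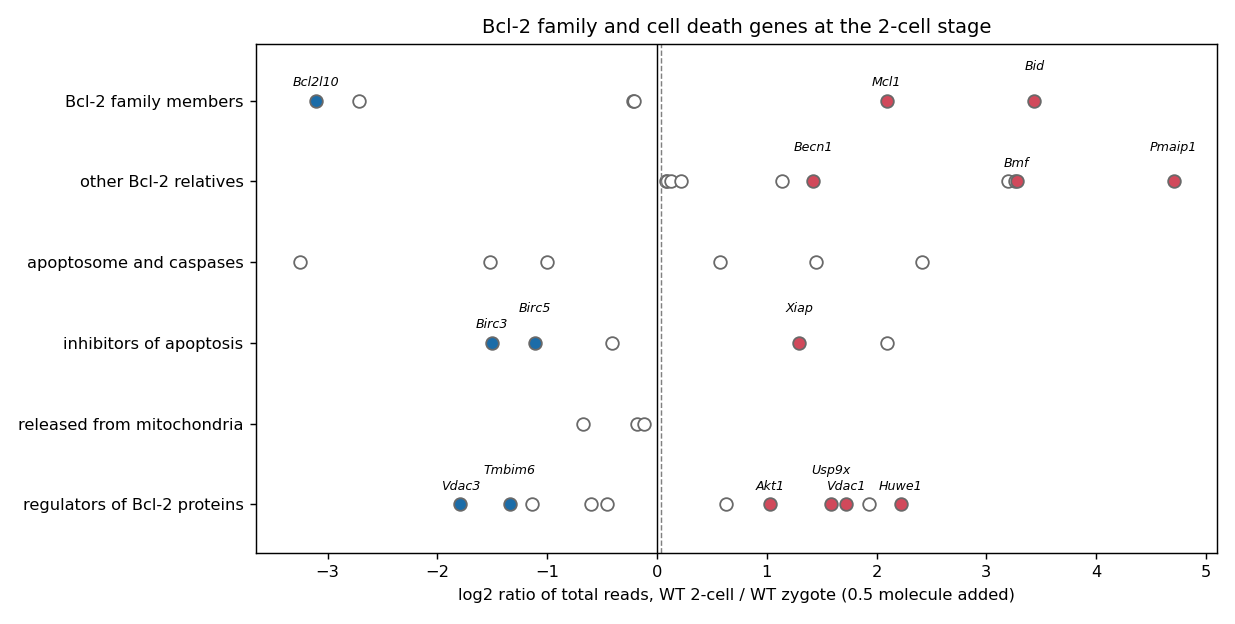
log2 ratio of total reads in WT 2-cell embryos against WT zygotes, with 0.5 molecule added, for tested genes of the Bcl-2 family and of 5 lists of cell death genes; each point is a gene, filled and named where it was called, and the dashed line is the median of all genes tested (0.04). Bcl2l10 lies farthest to the left among the called genes, and Pmaip1, Bid and Bmf, which passed the filter only through their 2-cell reads, farthest to the right.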

How the data were processed

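Per the labels' protocols, RNA of labelled embryos was depleted of ribosomal RNA, alkylated and sequenced. The genome build was mm10, as the submitters' processing notes have it. Not given in the sources used here are aligner, counter, annotation and handling of duplicates. For each row the authors deposited counts of all reads and counts of T-to-C reads, 1 pair per group. No source states whether the samples of a group were merged into its pair.

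Of 30493 rows, 47 named by a date were left out, and for each name the row of most reads was used. Columns were scaled by TMM factors of edgeR 4.0.16 on total reads (0.996, 1.04 and 0.963, in the order of the report), and T-to-C reads by the same. Ratios were tested with the exact conditional binomial test and shares with Fisher's exact test (scipy 1.17.1), on reads divided by 7 (a number taken over from an earlier look at the same counts), for genes with at least 20 total reads or 10 T-to-C reads over the columns, or 20 total reads in both columns for shares, and adjusted over all genes at 0.05. Both tests were checked on simulated data. List medians are of log2 ratios with 0.5 molecule added. The members and lists were chosen with earlier results of these data known. All 10 members are named, and of each list its called genes and up to 4 with the most reads; Bbc3 and the Bcl2a1 genes were added after their values were seen. Of the apoptosome and caspases, 1 gene is not reported here, so that list has no count or median. Alternatives were the reads per molecule, scaling, filters, summed rows, the amount added and edgeR's exact test.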

Additional observations from a re-analysis of the deposited data

How the results depend on the processing

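Of 46 recomputed counts of called members 41 stayed as reported or, for total reads at the 2-cell stage, became 2 or 4 in place of 3. The number of reads per molecule mattered most. With 1 read per molecule in each column, the members called in null against WT zygotes went from 0 to 2 in total reads, from 0 to 1 in T-to-C reads and from 0 to 1 in the T-to-C share, and in 2-cell embryos from 0 to 1 in the share. With 7 reads per molecule in the null column alone, 1 member was called in the 2-cell share. Over all genes, the percent called in null zygotes then became 23.9% of total reads, 17.9% of T-to-C reads and 12.2% of shares with 1 read per molecule, or 2.81%, 0.206% and 0.0167% with clumps in the null column. At the 2-cell stage it became 59.2%, 49.4% and 14.6% under both. The exact test of edgeR called 0.0229% and 21.4% of genes in T-to-C reads of null zygotes and 2-cell embryos. The filter of 50 reads in at least 2 columns called 2.33% and 40% there, of fewer genes tested, and 42.6% in total reads at the 2-cell stage. With RLE factors the 2-cell ratio of total reads turned to 1.04 for Bcl2l1 and 1.03 for Bcl2l11, and with T-to-C reads scaled by their own total the 2-cell ratio of T-to-C reads turned to 0.958 for Bcl2l1 and 0.797 for Mcl1. None of these 4 was called either way. Medians that changed sign with scaling are given beside their lists. Bcl2l10 was called lower at the 2-cell stage in total and T-to-C reads under every alternative run. Bid was not tested with the filter of 50 reads in at least 2 columns and was called higher in the others. Factors and filter from both WT columns alone, tried after the data were seen, left the calls as they were. No paired analysis was possible because the table has 1 column per group and readout, and for the same reason no replicate could be left out.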
